A study of Mus musculus with 8 samples.

Results

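Mouse embryonic fibroblasts (MEFs) of strain ICR were compared with those of strain OG2. The comparison used 2 of the 8 libraries of the series, chosen by their labels: the library labelled ICR MEF and the library labelled OG2 MEF, both from embryos of day 13.5. The other 6 libraries, used only to show what the fibroblasts share, came from C57 mice (glia, neuron, hippocampus, cortex and cerebellum) and from the embryonic stem cell library labelled R1 ESC. ICR is an outbred stock, and the name OG2 is in common use for mice that carry a green fluorescent reporter under regulatory sequence of Pou5f1, although the labels give the strain name alone. No treatment was labelled for either group. The labels do not give the number or sex of the embryos, the passage of the cells or any sorting. With 1 library per strain there was no replicate and no test, so strain, embryos, culture and library preparation cannot be told apart.

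MEFs are the adherent mesenchymal cells that grow out of a minced mid-gestation embryo. They secrete collagens and other matrix proteins, carry the actin-based contractile machinery of activated fibroblasts, and retain part of the positional HOX code of the body regions they came from. As a mixed outgrowth they can include myoblasts, chondrocytes, mesothelium, endothelium and macrophages, and they are widely used as feeder layers and as starting cells for reprogramming.

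Levels are given as TPM (normalised transcript abundance), which divides each expected count by the gene's effective length and scales every library to one common total. Total expected counts were 4805982 in ICR MEF and 5404041 in OG2 MEF, so 3 counts on a gene of 2000 bases were worth 0.543 and 0.461 TPM. The log2 ratios are those of TPM with 1 added, ICR over OG2. Folds are plain ratios of TPM. Each carries a 95% interval computed exactly (Clopper-Pearson) from both libraries' expected counts, covering counting error only. In bulk RNA, fewer cells of a type and less RNA per cell cannot be told apart.

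The fibroblast libraries lay close together. ICR MEF had 8497 genes at 10 TPM or more and OG2 MEF 8152, of which 7950 were shared. For the 8323 genes averaging 10 TPM or more, log2 ratios had a median of 0.07 and an SD of 0.40 across genes, and 98.1% were within 2-fold. Of the 100 most abundant genes in each library 96 were the same, and they took 31.8% of TPM in ICR MEF and 34.2% in OG2 MEF. At the other end, 17 genes at 10 TPM or more in ICR MEF had under 1 TPM in OG2 MEF, and 5 genes the reverse. The scatter of gene levels shows this narrow band and the genes that leave it.

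**Figure D1:**
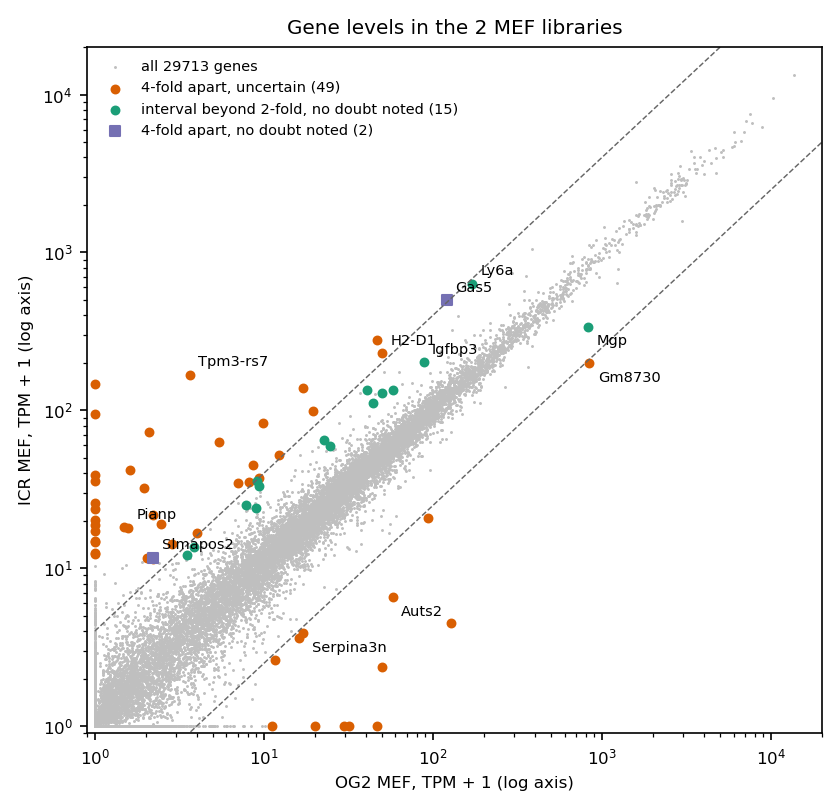
Level of each of the 29713 genes in OG2 MEF (horizontal) and ICR MEF (vertical), as TPM with 1 added on log axes, 1 library per axis. Dashed lines mark a 4-fold ratio. Orange points are 49 genes at least 4-fold apart with non-whole counts, a predicted model name, unequal effective length or a near-identical copy, purple squares are the 2 with none of these (Gas5, Slmapos2), and green points are 15 further genes with none of these whose interval lies beyond 2-fold.

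The spread between the libraries was larger than counting error at every depth. It was measured on genes with whole counts and effective lengths within 5% of each other. These genes were grouped by their counts in whichever library had fewer. Among the 1470 genes at 30 to 100 such counts the SD of the log2 fold was 0.41, against 0.26 from counting error alone. Among the 128 genes with 3000 counts or more the SD was 0.19, against 0.03. The share of genes whose 95% interval held the group's median fell with depth, from 82.7% to 28.1%. An interval in the following paragraphs is therefore narrower than the scatter of comparable genes, most of all for abundant ones.

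**Figure D2:**
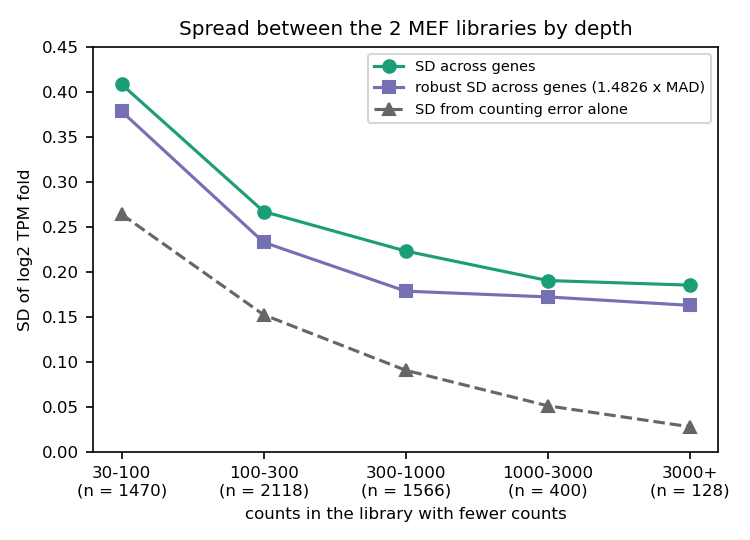
SD of the log2 TPM fold between ICR MEF and OG2 MEF across genes (vertical), by the counts of the library with fewer counts (horizontal, with the number of genes). Green circles are the SD, purple squares a robust SD from the median absolute deviation, and grey triangles the SD that counting error alone gives, which falls from 0.26 to 0.03 while the observed SD levels off at 0.19.

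Both libraries held the fibroblast programme at high levels. Of the 27 fibroblast and matrix genes 26 reached 10 TPM in at least one of them, and Tcf21, a transcription factor of visceral mesenchyme, was at 0 counts in both. Collagen I chain Col1a1 stood at 3058 TPM in ICR MEF and at 2853 TPM in OG2 MEF. Its partner chain Col1a2 stood at 2865 and 2571 TPM, and the fibril collagen Col3a1 at 1206 and 920.5 TPM. Values for fibronectin (Fn1) were 2541 and 2036 TPM, and for the intermediate filament vimentin (Vim) 5814 and 6037 TPM. The mesenchymal transcription factors Prrx1 (224 and 221 TPM), Twist1 (62.8 and 54.3) and Twist2 (83.2 and 88.9) differed by less than 1.2-fold. The list had a median log2 ratio of 0.29, against 0.09 for all 12758 genes averaging 1 TPM or more.

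A gene was called shared and higher when both MEF libraries had at least 10 TPM and the smaller of these values exceeded every one of the other 6 libraries 4-fold or more, on TPM with 1 added. This held for 139 genes, 1.75% of the 7950 genes at 10 TPM or more in both. They included 15 of the 27 fibroblast and matrix genes. The highest of the other libraries was glia for 65 of the 139 and the library labelled R1 ESC for 35. Between the strains 113 of the 139 lay within 1.5-fold and 134 within 2-fold, and none was 4-fold apart. Of all genes averaging 10 TPM or more 98.1% lay within 2-fold, and the 4-fold rule given below called 0.586% of all genes tested. The shared rule uses the smaller MEF value and so favours genes alike in both. These counts therefore show no closeness particular to the 139. Without glia the count was 466.

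H19, the imprinted non-coding RNA expressed from the maternal allele (ENSMUSG00000000031, chromosome 7, 142575529 to 142578143, mm10), had the largest ratio. It stood at 4622 TPM in ICR MEF and 5859 in OG2 MEF against 25.9 in glia, the next library, 178-fold (152 to 211) below. Its neighbour Igf2, the fetal growth factor (ENSMUSG00000048583), stood at 2266 and 3089.8 TPM, 32.3-fold (29.3 to 35.6) above cortex. OG2 MEF was the higher library for both, by 1.27-fold (1.25 to 1.29) and 1.36-fold (1.34 to 1.39).

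Matrix and surface genes were among the other genes named by this ratio. The enzyme lysyl oxidase (Lox), which crosslinks collagen, stood at 1232 and 1034 TPM, 28.4-fold above glia. Fibulin-2 (Fbln2), a matrix glycoprotein, stood at 1601 and 1444 TPM, and periostin (Postn), a matricellular protein, at 358 and 215 TPM. Postn was 1.66-fold (1.57 to 1.77) higher in ICR MEF, with an effective length 1.16-fold longer in OG2 MEF. The interleukin-33 receptor Il1rl1 stood at 174 and 109 TPM, and Lrrc32, which docks latent TGF-beta at the cell surface, at 132 and 123 TPM. P-cadherin (Cdh3) was at 36.1 and 34.5 TPM and at no more than 0.46 TPM in any other library. Ankrd1, a nuclear ankyrin-repeat protein induced by stretch and YAP activity, was at 37.1 and 56.7 TPM. Lrrc17 and C1qtnf3, both secreted proteins, and Col1a1, Col1a2 and Col3a1 were also among them, as was Eno1b, whose sequence is shared for 80.9% with Eno1 and whose level is uncertain.

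HOX genes of all 4 clusters were present in both libraries, as the plot of HOX levels shows. Of 39 HOX genes 16 reached 10 TPM in at least one MEF library, 9 were among the 139 shared genes, and none was called different between the strains. Either rule for strain differences, given below, called 1.22% of all 8699 genes tested, so none among 16 is near that share. Summed over all 39, the HOX genes stood at 387 TPM in ICR MEF and 398 in OG2 MEF, and at no more than 2.74 TPM in any brain, glia or neuron library. In the library labelled R1 ESC the sum was 79.1 TPM. Hoxc6 was the most abundant in both, at 46.9 and 43.5 TPM, and Hoxb9 stood at 30.02 and 36.8 TPM. Hoxd13, a gene of the distal limb, stood at 21.8 and 11.5 TPM, 1.91-fold (1.45 to 2.52) higher in ICR MEF, and Hoxa7, a trunk gene, at 20.1 and 34.7 TPM, 1.73-fold (1.23 to 2.46) higher in OG2 MEF. In the Hoxa cluster Hoxa10 led in ICR MEF (29.0 and 26.4 TPM) and Hoxa7 in OG2 MEF. Hoxb1, Hoxb13, Hoxc12 and Hoxd1 had 0 counts in both. The 34 HOX genes averaging 1 TPM or more had a median log2 ratio of 0.05. Of 34 regional transcription factors outside the clusters 10 reached 10 TPM in at least one MEF library and none was called, also near that share. Pitx1, a hindlimb factor, stood at 16.6 and 14.1 TPM and Msx1 at 11.1 and 3.86 TPM. Lmx1b, a dorsal limb factor, stood at 6.27 and 1.13 TPM with effective lengths of 2191 and 4613 bases, and at 7.91 and 3.15 on counts per library total (CPM).

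**Figure D3:**
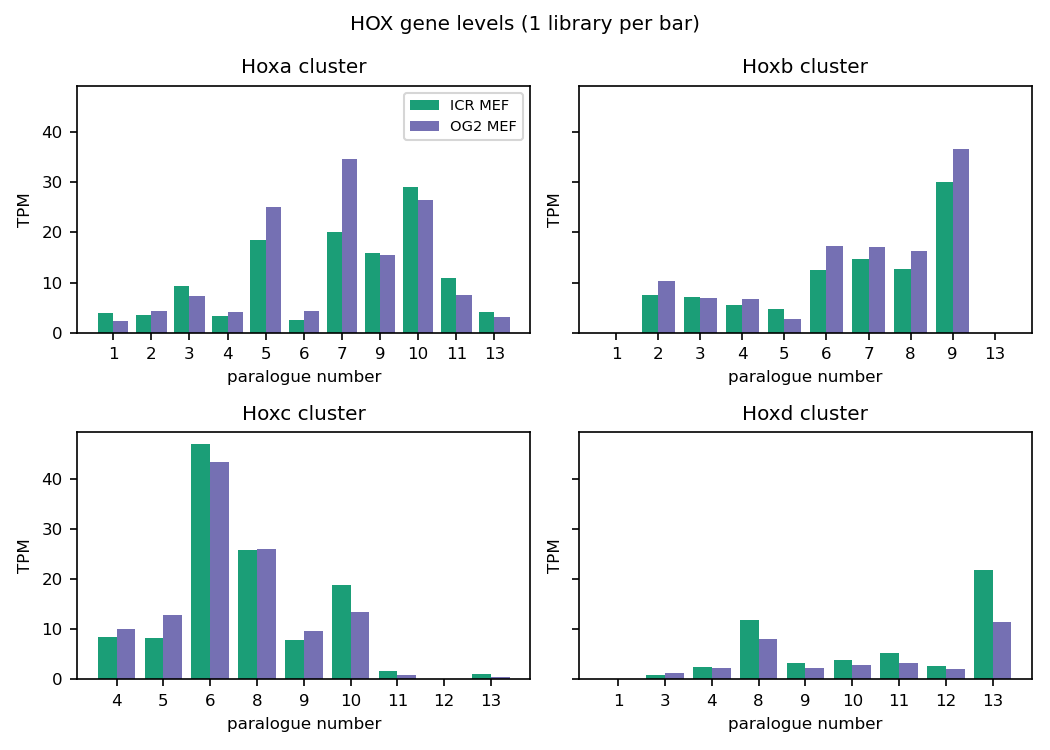
TPM of every HOX gene in ICR MEF (green) and OG2 MEF (purple), by cluster (panels) and paralogue number (horizontal), 1 library per bar and no error bar. Hoxc6 is the highest bar in both libraries (46.9 and 43.5 TPM), while in the Hoxa panel Hoxa10 leads in ICR MEF and Hoxa7 in OG2 MEF.

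Under the mirror rule, with all 6 other libraries at 10 TPM or more, 11 of 3159 genes (0.348%) were lower in both MEF libraries. This rule needs 6 unlike libraries to be high where the first needed 2, so the 11 cannot be set against the 139. Pcsk1n, the inhibitor of prohormone convertase 1, had 0 counts in both MEF libraries and at least 29.99 TPM in each of the others. Scg5, a chaperone of prohormone convertase 2, stood at 0.35 and 1.19 TPM, 16.9-fold (6.29 to 64.1) under the library labelled R1 ESC. Nat8l, which makes N-acetylaspartate, stood at 0.34 and 0.19 TPM, 30.01-fold (13.5 to 82.8) under glia. Adap1 and Rnf208 were also among the first 5, on at most 1 count in either MEF library. The count rested on the library labelled R1 ESC, without which it was 230, and was 28 without glia and 20 without ICR MEF.

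Differences between the strains were few. By the first rule a gene was called when the higher library had at least 10 TPM and the ratio of TPM with 1 added was at least 4. Of 8699 genes at 10 TPM or more in either library, 38 were called higher in ICR MEF (0.437%) and 13 higher in OG2 MEF (0.149%), 51 in all (0.586%). By the second rule, which needed the whole 95% interval of the fold beyond 2-fold, 81 were higher in ICR MEF (0.931%) and 18 in OG2 MEF (0.207%), 99 in all (1.14%). The rules had 44 genes in common.

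Most genes of the first rule carried a mark of uncertain read assignment or length. Expected counts were not whole in at least one library for 40 of the 51 (78.4%), against 20.9% of all genes tested. Predicted gene models made up 36 of the 51 (70.6%, against 3.51%). A near-identical copy, meaning another gene at a separate place that holds at least 30% of the 31-base words of its transcripts, existed for 28 of the 51 (54.9%, against 2.60%). Effective lengths differed by over 5% for 25 (49.0%, against 31.1%), and 12 had fewer than 30 counts in their higher library (23.5%, against 1.05%). Gas5 and Slmapos2, 2 of the 51, had whole counts, no model name, lengths within 5% and no copy, as did 54.9% of all genes tested.

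Some called genes were near-identical copies of an abundant gene. Tpm3-rs7, a single-exon copy of the tropomyosin gene Tpm3 (ENSMUSG00000058126, chromosome 14, 113314608 to 113316754), stood at 167 TPM in ICR MEF and 2.65 in OG2 MEF, 61.6-fold (38.3 to 106) higher. Tpm3 itself stood at 371 TPM in ICR MEF and 512 in OG2 MEF, so that the pair summed to 538 and 515 TPM. Gm8730, a processed pseudogene of the ribosomal protein gene Rplp0, stood at 197 TPM in ICR MEF and 841 in OG2 MEF, and its sum with Rplp0 was 3864 and 4342 TPM. Gm6563, a processed pseudogene of the mRNA export gene Sarnp, stood at 34.8 TPM in ICR MEF and 0 in OG2 MEF, at least 26.1-fold with OG2 MEF set at 3 counts, and its sum with Sarnp was 122 and 101 TPM. In each pair the copy was far apart between the strains while the sum lay within 1.25-fold. Sarnp alone stood at 87.1 and 101 TPM, so it and Tpm3 ran opposite to their copies. Rplp0 alone stood at 3667 and 3501 TPM, nearer to equal than its sum with Gm8730. A sum led by so abundant a gene stays near equal at these levels of its copy, so it does not check the copy's value.

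Windows of 60 bases from the coding part of each pair show how little separates them (GENCODE M21 transcripts, 5′ to 3′, the genome reference of strain C57BL/6J). Capitals mark the bases that differ within a pair. Over the whole aligned coding sequence, Tpm3-rs7 and Tpm3 differed at 3 of 744 bases, Gm8730 and Rplp0 at 12 of 951, and Gm6563 and Sarnp at 1 of 630, identities of 99.6%, 98.7% and 99.8%. The alleles that ICR and OG2 carry at these places were not read here.
Tpm3-rs7: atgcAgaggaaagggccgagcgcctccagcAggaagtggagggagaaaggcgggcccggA
Tpm3: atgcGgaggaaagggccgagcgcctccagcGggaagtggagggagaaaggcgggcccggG
Gm8730: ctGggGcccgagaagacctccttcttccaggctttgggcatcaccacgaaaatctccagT
Rplp0: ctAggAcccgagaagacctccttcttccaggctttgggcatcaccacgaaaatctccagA
Gm6563: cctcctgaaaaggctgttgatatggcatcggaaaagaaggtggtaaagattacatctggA
Sarnp: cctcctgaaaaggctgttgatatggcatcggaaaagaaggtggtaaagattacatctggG

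The same sum was formed for every gene of the first rule that shared at least 30% of its words with another, exon-sharing models included. This could be done for 35 of the 51. Of these 35 sums 25 lay within 2-fold, 7 between 2-fold and 4-fold, and 3 at least 4-fold apart, as drawn in the plot of genes alone and summed. The sums are not all separate families: Gm13305 and Il11ra2 have the same sum, as do Gm14410 and Gm14308, and Gm14419, Gm2026, Gm4631 and Gm14403 belong to the same array on chromosome 2. Many sums within 2-fold joined pseudogenes or overlapping models to well-expressed genes: Gm10263 to Rps28, Gm10036 to Rpl11, Gm6768 to Ncoa4, Gm10273 to Timm23, Gm12355 to Srsf3, Gm20721 to Gnas, Gm20388 to Galnt2, Gm26718 to Pgam5 and Gm37401 to Rhoa. Gm20721, for example, stood at 3.49 TPM in ICR MEF and 127 in OG2 MEF, while its sum with Gnas, the stimulatory G protein gene, was 1464 and 1463 TPM. Gnas alone stood at 1460 and 1336 TPM, and Rhoa alone at 560 and 583 TPM. Where the partner is that much more abundant, the sum lies within 2-fold by the partner's size, so it does not check the model's value.

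**Figure D4:**
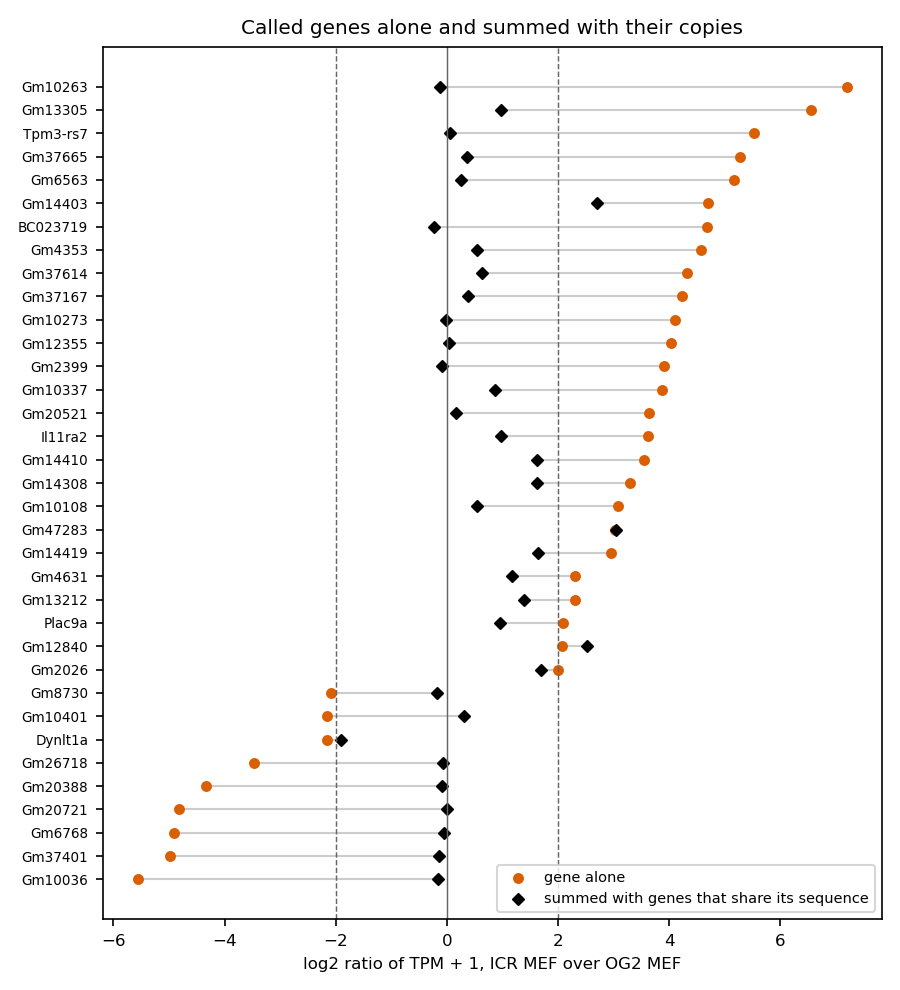
Log2 ratio of TPM with 1 added, ICR MEF over OG2 MEF, for the 35 genes of the 4-fold rule that share sequence with another gene: the gene alone (orange) and summed with the genes that share its sequence (black diamonds). Dashed lines mark 4-fold; 25 of the sums lie within 2-fold and 3 remain beyond 4-fold.

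Some sums were further from 1. The receptor of interleukin-11 has copies on chromosome 4: Il11ra2 stood at 17.2 TPM in ICR MEF and 0.48 in OG2 MEF, and Gm13305 at 93.5 and 0. With Il11ra1 they summed to 179 and 90.1 TPM, 1.99-fold higher in ICR MEF. The Gm13305 part of that sum rested on an effective length of 375 bases in ICR MEF, against 987 in OG2 MEF. A shorter length raises TPM, so the fold of the sum is uncertain. Dynlt1a, a dynein light chain gene, stood at 19.8 TPM in ICR MEF and 91.9 in OG2 MEF, and with its copy Dynlt1c the sums were 25.1 and 96.8 TPM, 3.85-fold higher in OG2 MEF. The lincRNA models Gm12840 and Gm26809, on chromosomes 4 and 6, summed to 329.9 and 56.8 TPM, 5.81-fold higher in ICR MEF. Gm47283, a model at the end of the Y chromosome (90784738 to 90816464), stood at 138 and 15.9 TPM, and at 2213 TPM in the library labelled R1 ESC.

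By either rule 106 of the 8699 genes were called (1.22%). Where at least 3 of them followed each other at distances of at most 1 Mb, the stretch from the first to the last was counted, so its ends are called genes by construction. Between 174330319 and 177509763 on chromosome 2, 10 of the 20 genes at 10 TPM or more were called by either rule, 9 of them higher in ICR MEF and 7 by the 4-fold rule. All but Gm20721 belong to an array of predicted genes that includes the zinc finger gene Zfp970. Gm14410 stood at 62.4 TPM in ICR MEF and 4.39 in OG2 MEF, Gm14403 at 40.7 and 0.61, and Gm4631 at 33.9 and 6.01. Members of the array share sequence and had non-whole counts, so single values are uncertain. Gm14410 and the 13 genes that share its sequence summed to 305 TPM in ICR MEF and 98.3 in OG2 MEF, 3.11-fold higher in ICR MEF. Other groups of calls lay on chromosome 17 in the H2 region (4 of 24 genes), on chromosome 11 (Ccl7, Slfn9 and AA465934, 3 of 7) and on chromosome 4 (Kif24, Gm13305 and Il11ra2, 3 of 9). Over whole chromosomes the median log2 ratio ran from 0.05 to 0.12, with X at 0.09, and only Y, with 3 genes, stood apart at 1.42.

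In a further set the difference in TPM, which divides by effective length, came with a difference in that length. Auts2, a nuclear regulator of neuronal development (ENSMUSG00000029673, chromosome 5, 131437333 to 132543344), stood at 5.58 TPM in ICR MEF and 57.0 in OG2 MEF, 10.2-fold (7.46 to 13.97) higher in OG2 MEF. Its counts were 80 and 89, and its effective length was 5184 bases in ICR MEF and 480.1 in OG2 MEF, against 4766 to 6465 bases in the other 6 libraries. The table lists 17 transcripts for Auts2, of 144 to 7409 bases. On CPM, which use no length, Auts2 stood at 16.6 and 16.5, a log2 ratio of 0.01, so the libraries were nearly equal.

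Other calls followed the same pattern. Inpp1, an inositol phosphatase, stood at 6.42 and 25.6 TPM on 81 and 90 counts, with lengths of 4564 and 1079 bases. Vps45, a vesicle fusion regulator, stood at 13.2 and 36.5 TPM on 90 and 107 counts, and Hotairm1, an antisense RNA of the Hoxa cluster, at 2.64 and 15.2 TPM on 4 and 9 counts. Of the 99 genes of the interval rule 23 had effective lengths more than 1.5-fold apart. In 21 of the 23 the longer length was in the library with the lower TPM, and in 16 of them CPM differed by less than 2-fold. None of the other 76 had CPM within 2-fold. Of all 8323 genes averaging 10 TPM or more, 69.6% had lengths within 5% of each other and 109 were more than 1.5-fold apart, of which 80 were within 2-fold in TPM. The median log2 ratio also moved with length, from 0.01 in the fifth of genes with the shortest lengths to 0.14 in the longest.

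Of the 16 genes of the 4-fold rule that shared no sequence at 30%, 12 were higher in ICR MEF and 4 in OG2 MEF. Gas5, the spliced host RNA of a group of small nucleolar RNAs that accumulates in growth-arrested cells (ENSMUSG00000053332, chromosome 1, 161034422 to 161038539), stood at 498 TPM in ICR MEF (571 counts) and 120.1 in OG2 MEF (164 counts). That is 4.15-fold (3.48 to 4.96) higher in ICR MEF, with effective lengths of 415 and 419 bases. In the other 6 libraries it ran from 354 TPM in cerebellum to 885 in the library labelled R1 ESC, so OG2 MEF was the lowest of the 8. Its log2 ratio of 2.04 was 1.93 on CPM, under the threshold, and also fell just short of it with TMM factors.

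Slmapos2, a lincRNA antisense to Slmap (chromosome 14, 26389199 to 26395521), stood at 10.7 TPM (60 counts) in ICR MEF and 1.22 (8 counts) in OG2 MEF, 8.77-fold (4.18 to 21.2). It was at no more than 1.88 TPM in any other library, and no annotated exon of another measured gene overlapped it on either strand. Whether the counting used strand is not given, so unspliced reads of Slmap could not be separated here. Cwc22, a splicing factor of the exon junction complex (chromosome 2, 77881159 to 77946375), stood at 97.7 and 18.4 TPM, 5.30-fold (4.40 to 6.41). The predicted gene Gm13691 holds 22.4% of its words and the counts were not whole. Pianp, a neuronal membrane protein (chromosome 6, 124996694 to 125003096), stood at 17.1 TPM on 90 counts in ICR MEF and 0.58 TPM on 2 counts in OG2 MEF, 29.4-fold (7.90 to 246), with an effective length 1.80-fold longer in ICR MEF. It was abundant in cortex, at 193 TPM, and at 0.62 TPM in glia.

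The serpin A3 cluster on chromosome 12, which encodes secreted protease inhibitors, differed in both directions. Serpina3i stood at 71.8 TPM in ICR MEF and 1.08 in OG2 MEF, with effective lengths of 892.5 and 2023 bases, and Serpina3n at 2.87 and 16.1 TPM, 5.64-fold (3.26 to 10.5) higher in OG2 MEF. Counts of both were not whole, their closest relative being Serpina3g, and both are uncertain. The lincRNA Gm26809 and Gm38312, a model still to be experimentally tested in the annotation, were 6.12-fold (5.51 to 6.81) and 5.75-fold (4.06 to 8.33) higher in ICR MEF, each with non-whole counts. Tekt2 and Efcab7, 4833427G06Rik, AA465934 and a gene with an identifier alone had at most 33 counts in either library and are named only.

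H2-D1, a classical MHC class I heavy chain that presents peptides to T cells (ENSMUSG00000073411, chromosome 17, 35262730 to 35267499), stood at 228 TPM in ICR MEF (1014 counts) and 48.9 in OG2 MEF (269 counts). That is 4.67-fold (4.08 to 5.36) higher in ICR MEF. Its counts were not whole, since it shares 13.8% of its words with H2-K1 and less with other class I genes, so its value is uncertain. H2-K1, the second classical heavy chain, stood at 55.5 and 30.7 TPM, 1.81-fold (1.46 to 2.25), and H2-Q4, a non-classical heavy chain, at 16.0 and 4.77 TPM, 3.38-fold (2.14 to 5.51), both with non-whole counts. H2-T22, another non-classical gene, ran the other way at 15.6 and 54.2 TPM, while BC023719, which shares sequence with it, stood at 24.9 and 0 TPM. Summed with A930015D03Rik these came to 52.4 and 61.3 TPM.

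The light chain B2m was at 777 and 805 TPM, a ratio of 0.965 (0.901 to 1.03). The peptide transporter genes Tap1 (12.7 and 8.5 TPM) and Tap2 (16.6 and 9.27 TPM) were higher in ICR MEF by 1.49-fold (1.07 to 2.09) and 1.79-fold (1.32 to 2.43), and the class I transactivator Nlrc5 stood at 0.71 and 0.43 TPM on 6 counts each. The class II genes H2-Aa and Cd74 had 0 counts in both. The list of 17 antigen presentation genes, which does not hold H2-T22, had 12 with a mean of at least 1 TPM and a median log2 ratio of 0.65. Of the 12, 9 had the higher value in ICR MEF, where 63.0% of all genes at that level did. Interferon response genes, which share regulators with class I genes, had a median of -0.28 over 17 genes, 6 of them with the higher value in ICR MEF. Of the 7 at 10 TPM or more in either library none was called, near the 1.22% of all genes tested. Gbp2, a guanylate-binding protein, stood at 5.38 and 9.07 TPM.

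The class I promoters carry known elements, printed here for H2-D1, H2-K1 and H2-Q4, which were picked because all had the higher value in ICR MEF. Whether the elements bear on that difference was not tested. The RefSeq reference promoters (GRCm38.p6), 250 bases before each start, were searched on both strands for GGGGATTCCCC, the kappa B-like enhancer A of class I genes, and for AGTTTCACTTC, an interferon response element, both as the H2-K1 promoter holds them. The first occurred in 10 of 32851 promoters (0.0304%) and the second in 14 (0.0426%). The windows below are chr17:35262907-35262966 on the plus strand for H2-D1, chr17:34000415-34000474 on the minus strand for H2-K1 and chr17:35379427-35379486 on the plus strand for H2-Q4. They begin 187, 127 and 190 bases before the RefSeq starts, and for H2-D1 the GENCODE M21 model begins further upstream. Capitals mark the exact matches, which do not overlap each other. H2-D1 held both, as did H2-K1 by construction, H2-Q4 the second alone, and the B2m promoter window neither. Elsewhere among class I genes H2-Q6 held both, and H2-Q7 and H2-Q10 the second alone. A match describes the reference letters of C57BL/6J and not the alleles of ICR or OG2.
H2-D1: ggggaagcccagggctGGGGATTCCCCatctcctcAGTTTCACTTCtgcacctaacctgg
H2-K1: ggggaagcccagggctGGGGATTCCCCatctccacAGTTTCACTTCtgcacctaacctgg
H2-Q4: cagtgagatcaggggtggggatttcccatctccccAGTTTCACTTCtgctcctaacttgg

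The interval rule added genes with smaller folds and firmer counts. Of its 99 genes 17 had whole counts, no model name, lengths within 5% and no copy: 16 higher in ICR MEF (0.335% of 4776 such genes) and 1 higher in OG2 MEF (0.0209%). Ly6a, the GPI-anchored antigen Sca-1 of mesenchymal and stem cells (chromosome 15, 74994877 to 74998031), stood at 632 TPM in ICR MEF (1253 counts) and 169.9 in OG2 MEF (384 counts), 3.72-fold (3.32 to 4.18), with 21.9% of its words shared with Ly6c1. Ly6c1, of the same family, stood at 128 and 36.0 TPM, but shares 33.0% of its words with Ly6c2 and is uncertain. Ifi202b, an interferon-inducible gene known to vary between strains, stood at 34.5 and 8.09 TPM, 4.26-fold (2.99 to 6.21), and at no more than 1.34 TPM in the other libraries.

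Small leucine-rich proteoglycans, which organise collagen fibrils, were among them. Fibromodulin (Fmod) stood at 63.6 TPM in ICR MEF and 21.6 in OG2 MEF, 2.94-fold (2.50 to 3.48). Prelp stood at 32.4 and 8.40 TPM, 3.86-fold (3.05 to 4.91), and asporin (Aspn) at 109.7 and 42.95 TPM, 2.55-fold (2.23 to 2.94). Others of the family were nearer 1: biglycan (Bgn), the most abundant of those named, at 3129 and 2567 TPM, 1.22-fold (1.19 to 1.24), decorin (Dcn) at 82.6 and 49.5 TPM, 1.67-fold (1.43 to 1.96), lumican (Lum) at 32.4 and 20.4, 1.59-fold (1.25 to 2.01), and osteoglycin (Ogn) at 119.8 and 71.3, 1.68-fold (1.51 to 1.88). Among collagens Col6a3 alone was called, at 396 and 139 TPM, 2.85-fold (2.69 to 3.005), with an effective length 1.16-fold longer in ICR MEF. Its partner chains Col6a1 (395 and 322 TPM) and Col6a2 (252 and 196 TPM) were 1.22-fold and 1.29-fold higher in ICR MEF.

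Of the list of secreted growth factors and antagonists, Igfbp3 and Sfrp2 were called among 17 genes at 10 TPM or more, against 1.22% of all genes tested. The list was chosen with earlier results of these data known. Igfbp3, which binds insulin-like growth factors, stood at 202 TPM (1246 counts) in ICR MEF and 87.2 (630 counts) in OG2 MEF, 2.31-fold (2.10 to 2.55). Igfbp5 ran the other way at 112 and 173 TPM, 1.55-fold (1.46 to 1.64) higher in OG2 MEF, and was not called. The secreted Wnt antagonists Sfrp4 and Sfrp2 were 3.57-fold (2.42 to 5.39) and 3.36-fold (2.30 to 5.05) higher in ICR MEF, Sfrp2 with an effective length 1.40-fold longer there. Lgr5, the R-spondin receptor, stood at 12.7 and 2.84 TPM, 4.47-fold (3.15 to 6.47). Sfrp1, at 25.3 and 20.5 TPM, and Wnt5a, at 36.6 and 38.6 TPM, differed by less than 1.25-fold. Gremlin 1 (Grem1), a BMP antagonist, stood at 65.2 and 118 TPM, 1.81-fold (1.65 to 1.98) higher in OG2 MEF.

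Single genes of other roles completed the ICR side. The enkephalin precursor gene Penk stood at 133 and 39.6 TPM, 3.35-fold (2.69 to 4.20), and the monocyte chemokine Ccl7 at 128 and 48.8 TPM, 2.63-fold (2.07 to 3.37). The adjacent chemokine gene Ccl2, at 90.6 and 41.1 TPM, was 2.21-fold (1.69 to 2.90) higher, short of the rule. Rgs4, a G protein regulator, was 2.48-fold (2.10 to 2.94) higher and Rsph1, a ciliary gene, 4.50-fold (2.02 to 11.3) on 31 and 8 counts. Ucp2, a mitochondrial carrier, stood at 175 and 50.3 TPM and Rsrp1 at 128 and 50.0 TPM, with counts of 594 and 278 and of 519 and 271. The processed pseudogenes Gm10709 and Gm6576, at 740 and 293 TPM and at 321 and 128 TPM, share 94.6% and 49.5% of their words with the ribosomal protein genes Rpl29 and Rps2 and are uncertain.

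Lars2, the mitochondrial leucyl-tRNA synthetase gene, stood at 134 and 57.1 TPM, 2.34-fold (2.14 to 2.57) higher in ICR MEF. Gm42418, a non-coding model over the ribosomal RNA repeat unit on chromosome 17, stood at 1047 and 386 TPM. Both also varied among the other libraries and were highest in hippocampus, at 665 and 7159 TPM. Whether remaining ribosomal RNA moved these values was not tested.

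On the OG2 side Mgp, the matrix Gla protein that inhibits calcification of cartilage and vessel walls (chromosome 6, 136872435 to 136875823), was the only gene free of these marks. It stood at 338 TPM (405 counts) in ICR MEF and 823 (1127 counts) in OG2 MEF, 2.44-fold (2.17 to 2.74) higher in OG2 MEF. Srp54a, a subunit of the signal recognition particle, stood at 20.6 and 59.5 TPM, and every one of its words (100%) was also found in Srp54c. Saal1 (16.5 and 49.2 TPM, 90 and 125 counts) had an effective length more than 2-fold shorter in OG2 MEF.

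Sex-linked genes were present in both libraries. Xist, the RNA of the inactive X chromosome, stood at 21.2 TPM in ICR MEF and 16.8 TPM in OG2 MEF. Values of the Y-linked genes Ddx3y (22.9 and 7.95 TPM, 2.88-fold, 2.30 to 3.63), Eif2s3y (40.2 and 15.9 TPM, 2.53-fold, 1.94 to 3.33), Kdm5d (6.98 and 4.57 TPM) and Uty (7.74 and 4.73 TPM) were all higher in ICR MEF. Ddx3y was the only one of them called. The libraries thus held transcripts of both kinds, and the make-up of the embryos by sex was not given.

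Genes known to vary between mouse strains were listed apart from these calls. Of 16 measured, 13 had a mean of at least 1 TPM, 12 of them with the higher value in ICR MEF (63.0% of all genes at that level), with a median log2 ratio of 0.45. The list was chosen for variation between strains, so it is no independent evidence of one. Glo1, glyoxalase 1, stood at 139 and 267 TPM, 1.93-fold (1.74 to 2.13) higher in OG2 MEF. Nnt, the mitochondrial transhydrogenase, stood at 53.1 and 34.0 TPM, 1.56-fold (1.36 to 1.80) higher in ICR MEF, so its transcript was present in both. Ifi202b was the only member called.

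Lists of general fibroblast state lay near the background. Median log2 ratios were -0.09 for 16 contractile genes, 0.02 for 18 proliferation genes, 0.17 for 14 p53 and senescence genes, 0.02 for 21 hypoxia and glycolysis genes and 0.22 for 16 cholesterol synthesis genes. None of their members was called, near the 1.22% of all genes tested that either rule called. The higher value was in ICR MEF for 4, 10, 10, 11 and 13 of them in the same order, as for 63.0% of all genes averaging 1 TPM or more. Smooth muscle actin (Acta2) stood at 4302 and 5067 TPM, Cdk1 at 166 and 188 TPM, Mki67 at 39.8 and 25.6 TPM, Cdkn1a at 481 and 456 TPM and Cdkn2a at 101 and 103 TPM. Imprinted genes had a median of 0.16 over 24 genes, none called: Grb10 stood at 538 and 581 TPM and Dlk1 at 173 and 153 TPM. The plot of list members shows these medians beside that of all genes.

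**Figure D5:**
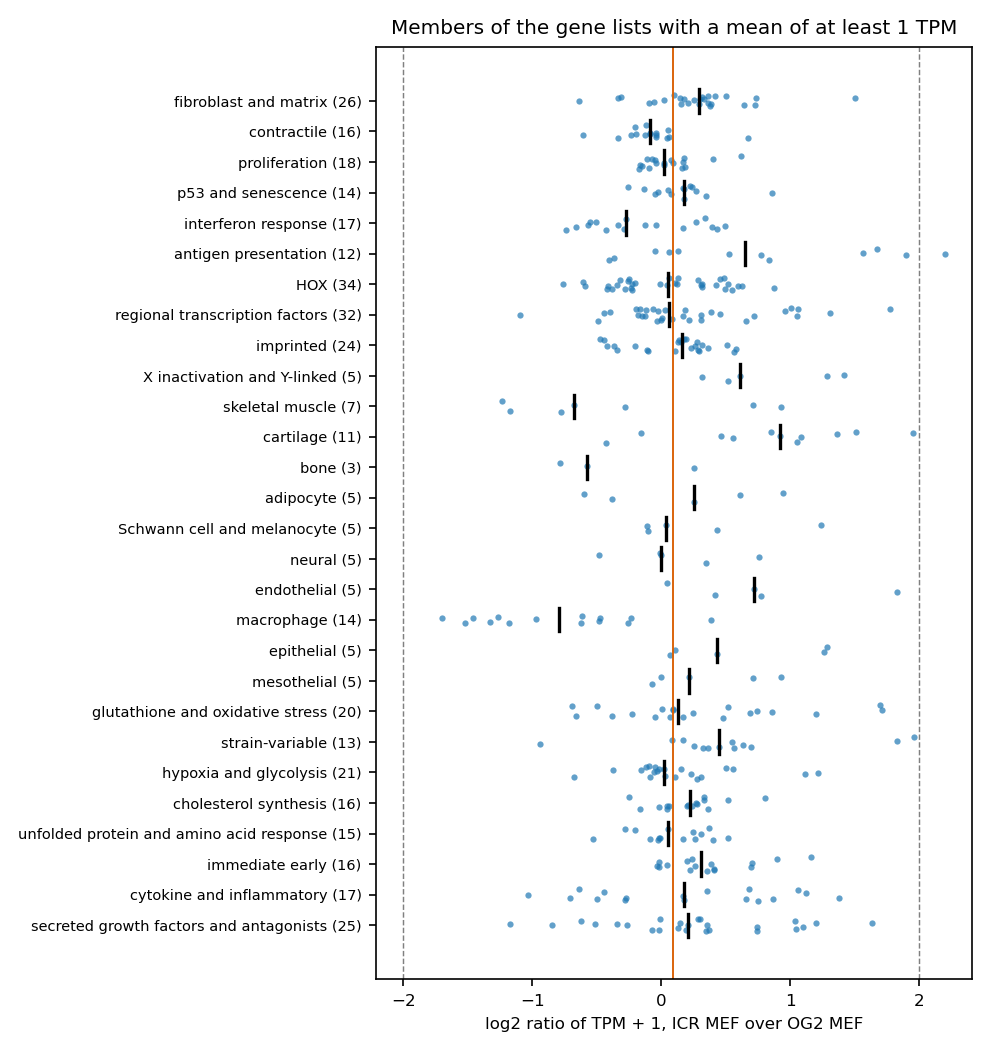
Log2 ratio of TPM with 1 added, ICR MEF over OG2 MEF, for each member (blue points) of 28 gene lists with a mean of at least 1 TPM, with the number of members in brackets. Black bars are list medians, the orange line the median of all genes (0.09) and dashed lines 4-fold; macrophage genes lie mostly to the left and cartilage, endothelial and antigen presentation genes mostly to the right.

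Markers of other cell types were low but unequal. Of 16 macrophage genes 15 had the higher value in OG2 MEF, and the list summed to 90.6 TPM in ICR MEF and 161 in OG2 MEF, with a median log2 ratio of -0.80. The complement genes C1qa (2.89 and 7.84 TPM), C1qb (2.74 and 11.1) and C1qc (4.18 and 11.98) and the surface marker Adgre1 (0.61 and 3.44) were 2.71-fold to 5.63-fold higher in OG2 MEF, on 5 to 12 counts in ICR MEF and 22 to 40 in OG2 MEF. Ptprc, the pan-leukocyte CD45, and Aif1 had 0 counts in ICR MEF and 11 and 1 in OG2 MEF. Of the 14 macrophage genes averaging 1 TPM or more, 13 had the higher value in OG2 MEF, while 63.0% of all genes at that level had it in ICR MEF. In the list 3 genes reached 10 TPM in at least one MEF library and so could be called. None was, near the 1.22% of all genes tested. The part of macrophage genes in the differences above was not tested.

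Cartilage genes ran the other way for the less abundant members. Acan, the large proteoglycan aggrecan, stood at 4.02 TPM (80 counts) in ICR MEF and 0.3 (7 counts) in OG2 MEF, 13.4-fold (6.23 to 34.5), below the 10 TPM that a call needed. Col10a1, a collagen of hypertrophic cartilage, stood at 27.7 and 12.8 TPM, 2.16-fold (1.73 to 2.72), while Col2a1, the main cartilage collagen, stood at 43.6 and 58.9 TPM, 1.35-fold (1.22 to 1.504) higher in OG2 MEF. The list summed to 194 and 184 TPM. Its median of 0.92 was 1.57 with 0.1 TPM added, 0.34 with 5 TPM added and 0.49 on CPM. Matn1, Cnmd and Snorc had 0 counts in both.

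Endothelial markers gave no clear population. Pecam1, Tie1 and Cldn5 had 0 counts in both libraries and Cdh5 at most 1, while Emcn stood at 9.77 and 2.03 TPM, 4.81-fold (2.34 to 10.9), and Eng, which fibroblasts also express, at 30.2 and 17.3 TPM. The list summed to 78.4 and 45.5 TPM. Of 23 skeletal muscle genes 7 had a mean of at least 1 TPM. Acta1 made up most of the list's sums of 84.8 and 136 TPM at 65.0 and 112 TPM, and the myogenic factors Myod1, Myf6 and Pax7 had 0 counts in both. Mesothelial genes summed to 88.3 and 67.7 TPM, with Msln at 36.2 and 36.2 TPM. The 14 epithelial genes summed to 67.8 and 57.2 TPM, and 3 of them reached 10 TPM in at least one MEF library. Krt7, at 16.2 and 15.05 TPM, was among the 139 shared genes, while Epcam and Cdh1 were among 5 with 0 counts in both libraries. All 11 erythroid genes, haemoglobins among them, had 0 counts in both libraries. The 13 germ cell and pluripotency genes summed to 1.55 and 1.70 TPM, with Pou5f1 at 0 counts in both.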

How the data were processed

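Trizol was used for RNA extraction and an Illumina TruSeq kit for the libraries, per the labels' protocols. Bowtie, RSEM and mm10 are named in the submitters' processing notes. Their versions, the annotation release and strandedness: not given in the sources used here. The authors deposited RSEM's expected counts for each gene beside TPM and effective lengths, per the file headers. Reads were not mapped again.

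Groups came from the labels, 1 library each (4805982 and 5404041 expected counts), so no test was run. The 4-fold, interval and shared rules are as given above. A side at 0 counts was set at 3 counts for a lower bound. Whole means within 0.01 of a whole number. Of 29713 genes 29202 had GENCODE M21 coordinates, and 83278 of the 84968 listed transcripts were found there; their 31-base words (both strands) gave the share held by other genes.

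The 30 gene lists (531 genes) and members were chosen with earlier results of these data known. Genes of the 4-fold rule were all accounted for, with full values for those with no mark of uncertainty. Of genes called only by the interval rule the 10 with the highest mean TPM per direction, and of the shared rule the first 15 and 5 by ratio without models, ribosomal or small RNA genes, were named, with list members as examples. Other genes without such marks, and those with the clearest copy or length marks, were named after their values were seen. Some genes these rules name are not reported here.

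Alternatives were 0.1 or 5 TPM added, a floor of 1 TPM or none, TMM factors, CPM, thinning, whole counts alone, 1 effective length per gene and leaving out each library. Sums over sequence-sharing genes were added after seeing the data. Rules were tested on simulated data. TMM factors came from edgeR 4.0.16 (R 4.3.3). Other steps used scipy 1.17.1, pandas 2.3.3, matplotlib 3.10.9 and numpy 2.4.6 under Python 3.11.15.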

Additional observations from a re-analysis of the deposited data

How the results depend on the processing

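The 38 genes of the 4-fold rule higher in ICR MEF were 22 with 5 TPM added, 93 with a floor of 1 TPM and 93 with none, 8 with whole counts alone and 15 with sums over sequence-sharing genes. The 13 higher in OG2 MEF were 8, 41, 41, 3 and 4 in the same order, and 6 on CPM. Of the 51, 22 fell short on CPM, 21 with 5 TPM added and 2 with TMM factors. Auts2, not counted in those 22, went from -3.14 to 0.0145 on CPM and 0.0597 with 1 effective length per gene, nearly equal between the libraries. By the interval rule the 81 and 18 were 157 and 49 with a floor of 1 TPM, 163 and 51 with none, and 43 and 7 with whole counts alone. The 139 shared genes ran from 140 to 466 when each library was left out, the highest without glia. The 11 lower ones ran from 11 to 230, and were 4 with 5 TPM added and 23 on CPM. Medians of skeletal muscle and bone genes were -0.22 and 0.14 on CPM. Causes were not tested, beyond the smaller or larger sets of genes that floors and filters leave by construction. No paired analysis was possible because each group held 1 library and the labels carry no replicate numbers. Depth limited single genes under about 30 counts, and variation between embryos or cultures was not measured.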

Other observations

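Further gene lists lay close to the median log2 ratio of all genes, 0.09, with no gene called, against 1.22% of all genes tested. Their medians were 0.13 for 20 glutathione and oxidative stress genes, 0.06 for 15 genes of the unfolded protein and amino acid response, 0.31 for 16 immediate early genes and 0.06 for 32 regional transcription factors. Within the glutathione list Gsta4, a glutathione transferase for lipid peroxidation products, stood at 65.7 TPM in ICR MEF and 28.0 in OG2 MEF, and Gstp1 at 468 and 279 TPM. Cytokine and inflammatory genes had a median of 0.18 over 17 genes, with Ccl7 the only gene called, and Cxcl12, a chemokine made by stromal cells, stood at 491 and 598 TPM. Secreted growth factors and antagonists had a median of 0.20 over 25 genes, with Igfbp3 and Sfrp2 called.

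Markers of remaining cell types were few. Medians were 0.26 over 5 adipocyte genes, 0.03 over 5 Schwann cell and melanocyte genes, -0.00 over 5 neural genes, 0.44 over 5 epithelial genes and -0.57 over 3 bone genes. Of 7 adipocyte genes measured, Adipoq and Plin1, which define adipocytes, were the only 2 with 0 counts in both libraries. The other 5 averaged at least 1 TPM, and 2 of these reached 10 TPM in at least one MEF library. The adipocyte list summed to 35.04 TPM (ICR MEF) and 26.49 TPM (OG2 MEF). The sums of the bone list were 617 TPM in ICR MEF and 528 in OG2 MEF, and those of the neural list 198 and 181 TPM. The part of such cells in the differences between the strains was not tested.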
